A study of Mus musculus with 24 samples.

Results

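The genes described here encode the enzymes and binding proteins with which cells remove reactive oxygen species, recycle glutathione and hold zinc, copper and iron. They are 42 mouse genes listed by symbol, a list drawn up with earlier results of these data known, and each matched 1 Ensembl identifier among the 37991 in the count files. All 42 passed the filter on low counts and were among the 15292 genes tested. They fall into 11 families, from superoxide dismutases to ferritin. RNA was measured in cerebellum from C57BL/6J males, a standard inbred strain, with no transgene or treatment in the labels, at 7 weeks and at 79 weeks of age, with 2 mRNA libraries at each age. The other 20 of the 24 samples in the series are genomic DNA and were not analysed here. Whether the pair of libraries at an age represents separate animals is not stated. The p-values rest only on how far such pairs differ, with spread estimates shared across genes, and that spread can be technical.

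Superoxide, a by-product of respiration, is converted to hydrogen peroxide by superoxide dismutases, and catalase, glutathione peroxidases and peroxiredoxins then remove the peroxide. For the glutathione peroxidases and peroxiredoxins, thioredoxin and glutathione supply the electrons and are themselves regenerated with NADPH. Many of these enzymes are induced by the transcription factor NRF2, which the adaptor KEAP1 otherwise sends for degradation, while metallothioneins are induced by zinc through the factor MTF1 and ferritin is controlled by iron, largely at translation. In the cerebellum, glial cells carry much of the glutathione and metallothionein, and oligodendrocytes and microglia hold much of the ferritin.

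At 79 weeks, 6 of the 42 genes rose and 2 fell at an adjusted p under 0.05 in edgeR's quasi-likelihood test, and 34 were not called. The genes that rose were Txnip, Ftl1, Sod1, Gstp1, Gpx3 and Nfe2l2, and the genes that fell were Mt2 and Sod2. The rises ran from 1.31-fold for Ftl1 to 3.22-fold for Gpx3, the 1 member that changed by at least 2-fold, as 4.22% of all genes did. The 8 calls were 19.0% of the members, against 8.84% of all genes tested. The rises were 14.3% of the members against 4.17% of all genes, and the falls were 4.76% against 4.68%. The median log2 fold change was 0.12 over the members and 0.01 over all genes tested, and the member median was 0.060 in edgeR and 0.053 in DESeq2 when 79-week replicate 1 was left out. In both 79-week libraries the level lay above both 7-week libraries for 20 members, or 47.6% against 29.0% of all genes, and below them for 8 members, or 19.0% against 28.8%. Together 66.7% of the members did not overlap between ages, against 57.7% of all genes. Families held 1 to 7 members, so counts of calls within a family are not read as results about that family.

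**Figure D1:**
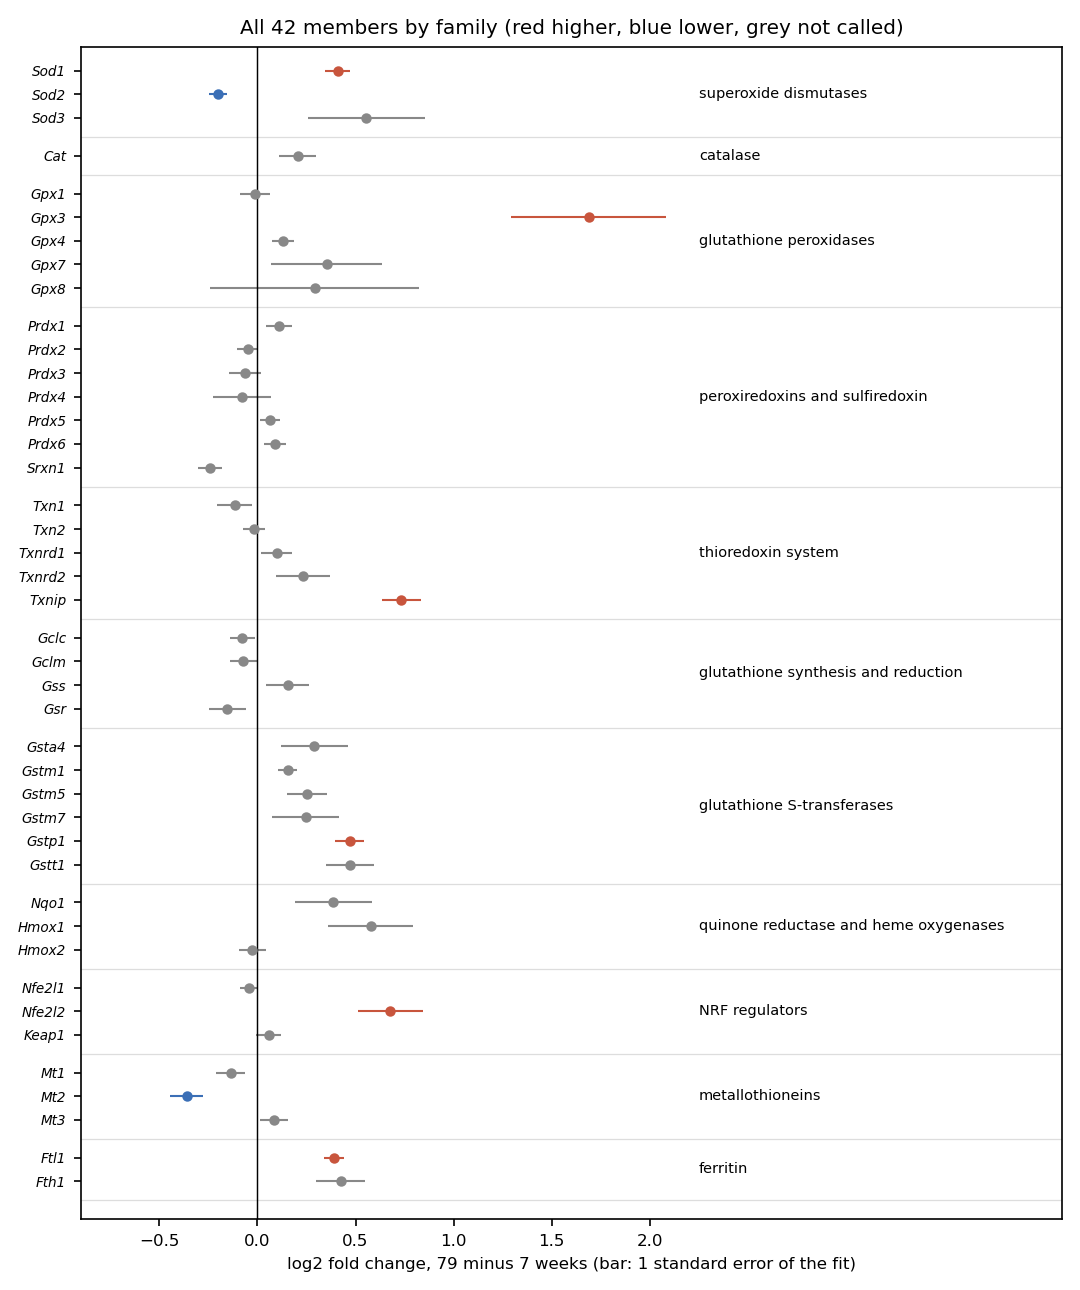
The horizontal axis gives the log2 fold change of 79 minus 7 weeks for each of the 42 genes, grouped by family, and bars span 1 standard error of the fit on each side. The 6 genes called higher (red) lie in 6 different families, all 6 glutathione S-transferases lie to the right of 0, and Sod2 and Mt2 (blue) are the genes called lower.

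In edgeR the calls needed both 7-week libraries. Without 7-week replicate 1, edgeR called 0 members and 0 of all genes, with 11 members and 2610 genes at an unadjusted p under 0.05, and DESeq2 called Mt2 alone among the members. Without 7-week replicate 2, edgeR again called 0 members (13 at an unadjusted p under 0.05) and DESeq2 called Sod1 and Ftl1. Without 79-week replicate 1, 7 of the 8 stayed called, and without 79-week replicate 2 also 7, with Sod2 the exception in both. DESeq2 kept 3 and 2 of the 8 in those reduced sets. All 8 kept their direction in every alternative fit that gave a value.

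The libraries held 16367656 to 22826993 gene counts, and the 42 genes took 0.358% and 0.368% of them at 7 weeks and 0.406% and 0.434% at 79 weeks. Levels are CPM, read counts scaled to library size by TMM and not divided by transcript length, so they are compared between libraries for 1 gene and not between genes. One library stood apart. In 79-week replicate 1 the summed level of 10 choroid plexus markers was 5399 CPM, against 39.9 CPM in 79-week replicate 2 and 17.4 and 30.8 CPM at 7 weeks, and 6 of the 10 were tested, with 0 called. The defining marker Folr1 had 0 reads in both 7-week libraries, Kcne2 in 1 of them and Sostdc1 in 79-week replicate 2. Markers of ependymal cells summed to 23.5 and 24.1 CPM at 7 weeks and 76.5 and 31.5 CPM at 79 weeks. Those of meninges summed to 184 and 208, then 368 and 169 CPM. In 79-week replicate 1, Igf2 alone made up 228 of the 368 CPM. Col1a1, Col1a2 and Col3a1 were below both 7-week libraries there, while 7 of the 10 meningeal markers had log2 fold changes above 0. Microglial markers summed to 153 and 170 CPM at 7 weeks and 271 and 332 CPM at 79 weeks, with 9 of 12 called higher. Oligodendrocyte markers summed to 6152 and 5765, then 3714 and 5238 CPM, with 3 of 10 called lower. Markers of granule neurons fell in 6 of 12 genes and rose in 1, and those of Purkinje cells fell in 7 of 12. Of 13 markers of Bergmann glia and astrocytes 2 rose and 2 fell, endothelial markers had 0 of 10 called and red blood cell markers 0 of 6 tested. Of all genes tested, 4.17% rose and 4.68% fell. In bulk tissue, fewer cells of a type and less RNA per cell cannot be told apart.

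The regulators come first. Nfe2l2 (ENSMUSG00000015839), which encodes NRF2, stood at 16.0 and 19.8 CPM in the 7-week libraries and at 24.3 and 33.0 CPM in the 79-week libraries. The ages did not overlap, and the aged libraries were further apart than the young ones. The mean went from 17.9 ± 2.70 to 28.7 ± 6.17 CPM (SD, n = 2 per age), a log2 fold change of 0.68 (SE 0.16, edgeR adjusted p = 0.0471). The call was close to the threshold and held in 11 of the 18 alternatives. Among the fits that ended it were limma-voom (adjusted p = 0.0641) and robust dispersion estimates (adjusted p = 0.0554). Without 79-week replicate 1 the log2 fold change was 0.88, and without 79-week replicate 2 it was 0.43.

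Keap1, the inhibitor of NRF2, stood at 63.9 and 66.5 CPM at 7 weeks and at 69.0 and 66.7 CPM at 79 weeks (log2 fold change 0.06, adjusted p = 0.623). Nfe2l1, which encodes the related factor NRF1 and regulates proteasome genes among others, was at 240.3 and 247 CPM, then 239 and 233 CPM (log2 fold change -0.04, SE 0.05, adjusted p = 0.608). Of the 3 regulators 1 was called, Nfe2l2, against 8.84% of all genes tested. Another 21 genes of the NRF2 pathway were listed, among them its MAF partners, BACH repressors and known targets. Of these 1 rose, or 4.76% against 4.17% of all genes, 0 fell and 20 were not called. The gene that rose was Aox1, which encodes an aldehyde oxidase, at 9.09 and 9.93 CPM, then 20.0 and 14.1 CPM (log2 fold change 0.83, SE 0.18) with an adjusted p of 0.0324. The level in 79-week replicate 1 was the higher of the aged pair. The median log2 fold change of the 21 genes was 0.14, and the aged libraries lay above the young ones for 10 of them, or 47.6% against 29.0% of all genes, and below for 1, or 4.76% against 28.8%.

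Upstream sequence of Nfe2l2 and of 2 other genes that rose, Sod1 and Gstp1, is shown because each holds the core letters of an antioxidant response element, the element to which NRF2 binds with a MAF partner. Each line is the 250 bases before the annotated start from RefSeq, build GRCm38.p6, read 5′ to 3′ on the gene's strand. Capitals mark TGACNNNGC or TGAGNNNGC on either strand, and TGCACNC or TGCGCNC, the core of the metal response element, where present. The windows lie at chr2:75704664-75704913 on the minus strand for Nfe2l2, at chr16:90220512-90220761 on the plus strand for Sod1 and at chr19:4037913-4038162 on the minus strand for Gstp1.
Nfe2l2: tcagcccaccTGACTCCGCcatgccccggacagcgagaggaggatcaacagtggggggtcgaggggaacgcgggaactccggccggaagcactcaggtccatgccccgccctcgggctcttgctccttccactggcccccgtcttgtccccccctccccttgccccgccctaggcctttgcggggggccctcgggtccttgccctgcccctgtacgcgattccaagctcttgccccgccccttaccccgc
Sod1: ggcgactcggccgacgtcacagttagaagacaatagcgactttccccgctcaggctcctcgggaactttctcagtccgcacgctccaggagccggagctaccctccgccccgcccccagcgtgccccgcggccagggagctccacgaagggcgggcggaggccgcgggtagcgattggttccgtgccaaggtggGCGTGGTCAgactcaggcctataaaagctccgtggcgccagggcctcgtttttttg
Gstp1: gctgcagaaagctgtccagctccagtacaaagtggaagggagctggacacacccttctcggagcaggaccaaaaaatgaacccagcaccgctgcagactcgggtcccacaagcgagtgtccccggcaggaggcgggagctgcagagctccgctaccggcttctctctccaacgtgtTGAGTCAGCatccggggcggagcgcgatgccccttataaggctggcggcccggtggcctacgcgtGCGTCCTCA

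In Nfe2l2 the match begins 240 bases before the start. In Sod1 it begins 56 bases before the start and lies on the opposite strand. Gstp1 holds TGAGTCAGC 74 bases before its start and a second match, on the opposite strand, that ends at the start. Such letters are common: 23.0% of the 32851 RefSeq windows of this length hold 1 or both antioxidant forms. Sequence was found for 36 of the 42 genes, in 50 windows, since some genes have several annotated starts. Of the 50 windows 17 hold a match, and these belong to 14 genes, among them Gclm, Srxn1, Prdx1 and Txnrd1, which were not called. Txnip, Ftl1 and Gpx3, the other genes that rose, have sequence but no antioxidant match in it. A match describes letters and is not evidence of binding.

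**Figure D2:**
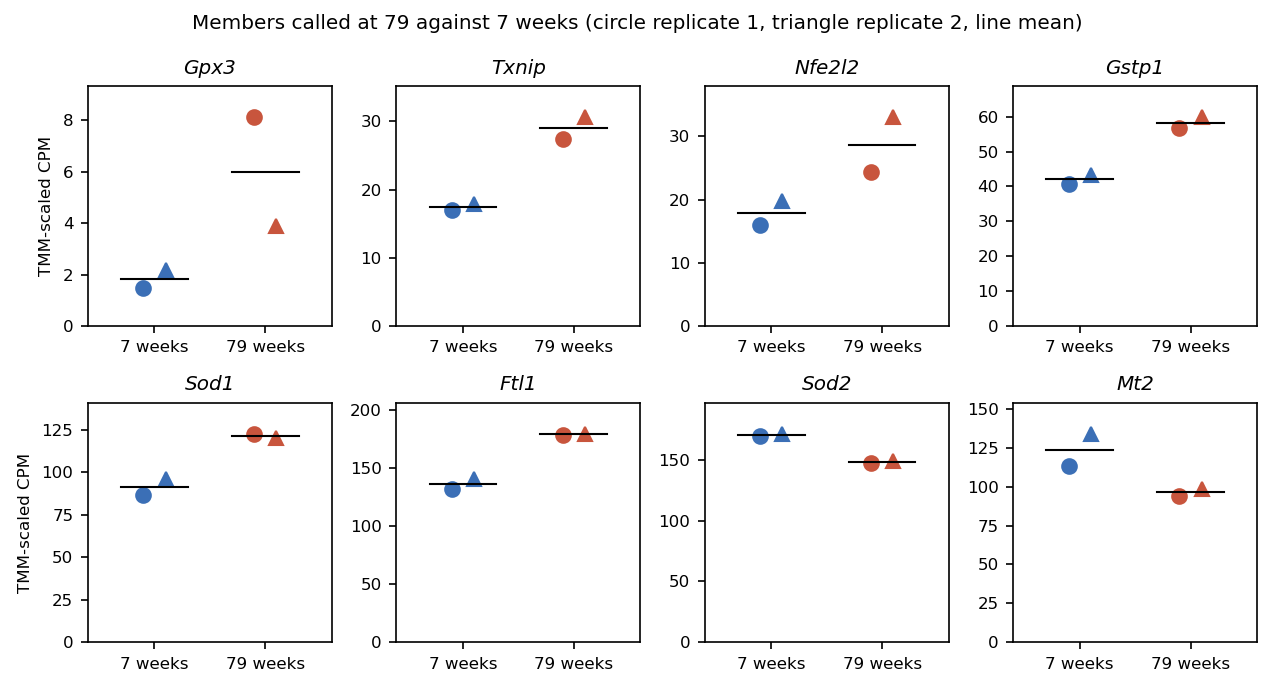
Each panel gives the TMM-scaled CPM of 1 called gene in every library, with circles for replicate 1, triangles for replicate 2 and lines for the mean of an age; each vertical axis starts at 0. The ages do not overlap in any panel, and Gpx3 and Nfe2l2 show the widest gaps between the 79-week libraries, at 8.12 against 3.89 CPM and 24.3 against 33.0 CPM.

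The superoxide dismutases moved apart. Sod1 (ENSMUSG00000022982), the cytosolic copper-zinc enzyme, stood at 86.7 and 96.2 CPM at 7 weeks and at 123 and 120.4 CPM at 79 weeks. Its mean rose 1.33-fold, from 91.4 ± 6.66 to 122 ± 1.56 CPM (SD, n = 2 per age, log2 fold change 0.41, SE 0.06, edgeR adjusted p = 0.0137). The aged libraries were close to each other and above both young ones. Of the 18 alternatives 13 called Sod1, with log2 fold changes of 0.33 to 0.48 over all of them. Ccs, which encodes the chaperone that loads its copper, was at 13.4 and 12.8, then 13.8 and 13.4 CPM and was not called. Ccs belongs to a list of 18 further genes of thioredoxin-like proteins, methionine sulfoxide repair and oxidant defence. Of these 0 rose and 1 fell, or 5.56% against 4.68% of all genes. That gene was Oxr1, which protects cells from oxidative damage, at 271 and 280.1 CPM, then 239 and 239 CPM (log2 fold change -0.20, adjusted p = 0.0398).

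Sod2 (ENSMUSG00000006818), the manganese enzyme of the mitochondrial matrix, stood at 169 and 171 CPM at 7 weeks and at 147 and 149 CPM at 79 weeks. It fell by 0.20 on the log2 scale (SE 0.05, adjusted p = 0.0426). The difference was small and exceeded the gap between libraries of an age, but the call ended in 13 of the 18 alternatives, among them DESeq2 (adjusted p = 0.0719), limma-voom (0.0586), library size scaling (0.0953), a replicate block (0.0615) and the removal of any 1 library, within a range of 0.0121 to 0.696. Sod3, the secreted enzyme, was at 15.9 and 15.2 CPM at 7 weeks and at 31.2 and 14.8 CPM at 79 weeks. Of the 4 libraries 1 was above the others. In that aged library the summed markers of choroid plexus and of meninges were also highest, the latter largely through Igf2. The difference was not called (log2 fold change 0.56, SE 0.30, adjusted p = 0.285). When 79-week replicate 2 was left out the value was 1.002 (adjusted p = 3.67e-06), and when 79-week replicate 1 was left out it was -0.07 (adjusted p = 0.823), so 1 library decided it.

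Catalase, the peroxisomal enzyme encoded by Cat, stood at 49.3 and 49.5 CPM at 7 weeks and at 62.1 and 51.8 CPM at 79 weeks, with the higher aged value again in replicate 1. It was not called (log2 fold change 0.21, SE 0.10, adjusted p = 0.219), but was called without 79-week replicate 2 (0.33, adjusted p = 0.0228).

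Of the 5 glutathione peroxidases, which reduce peroxides with glutathione, 1 rose, against 4.17% of all genes. Gpx3 (ENSMUSG00000018339), a secreted selenoenzyme, stood at 1.49 and 2.17 CPM at 7 weeks and at 8.12 and 3.89 CPM at 79 weeks. Both aged libraries were above the young ones, and replicate 1 held 2.09 times the level of replicate 2. The log2 fold change was 1.69 (SE 0.39, adjusted p = 0.0413), from 1.83 ± 0.478 to 6.00 ± 2.99 CPM (SD, n = 2 per age). Leaving out 79-week replicate 1 gave 1.06 (adjusted p = 0.0479), leaving out the other aged library gave 2.12, and limma-voom did not call it (adjusted p = 0.0913). The library left out in the first of these is the one with choroid plexus markers at 5399 CPM, against 39.9 CPM in the other aged library. Their part in the result was not tested.

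Gpx4, which reduces lipid hydroperoxides in membranes, stood at 167 and 175 CPM at 7 weeks and at 193 and 181 CPM at 79 weeks (log2 fold change 0.13, SE 0.06, adjusted p = 0.188). Gpx1, the general cytosolic enzyme, had overlapping ages at 39.3 and 39.8, then 40.6 and 37.8 CPM (log2 fold change -0.01, SE 0.08). Gpx7 and Gpx8 are enzymes of the endoplasmic reticulum. Gpx7 was at 1.68 and 2.03 CPM, then 2.38 and 2.37 CPM and was not called (adjusted p = 0.467). Gpx8 showed the widest spread of any member, at 3.18 and 3.52 CPM at 7 weeks and at 6.57 and 1.73 CPM at 79 weeks. One aged library was above both young ones and the other below both (log2 fold change 0.29, SE 0.53, adjusted p = 0.773), and leaving out 79-week replicate 1 or replicate 2 gave -0.96 or 0.96. Of 15 genes of selenium supply and other selenoproteins, 0 were called in either direction, against 8.84% of all genes. At an unadjusted p under 0.05 in edgeR there were 4, and the median log2 fold change was -0.07.

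**Figure D3:**
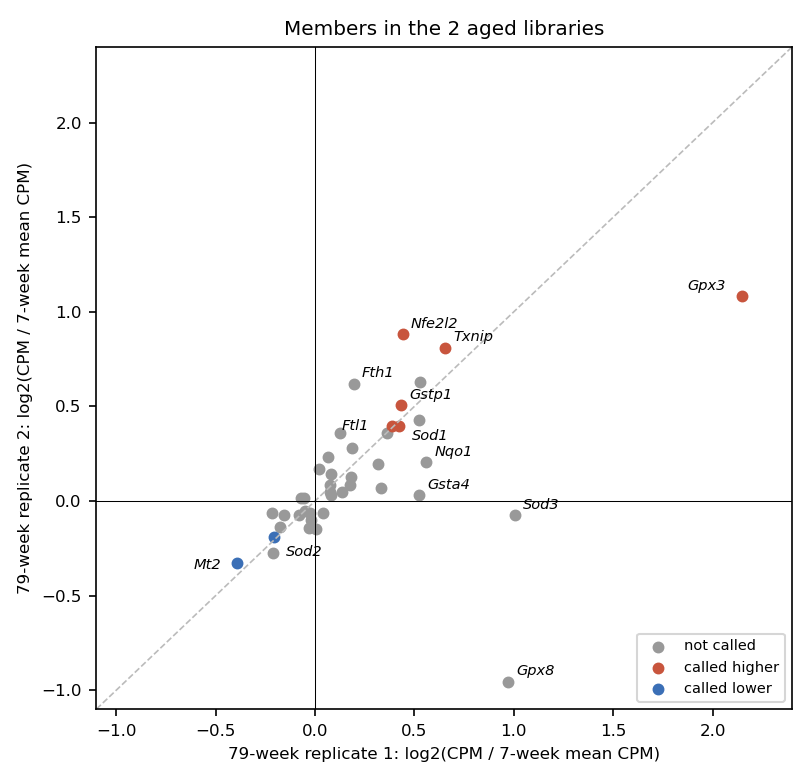
Each point is 1 of the 42 genes, with its log2 ratio to the 7-week mean in 79-week replicate 1 (horizontal) and in 79-week replicate 2 (vertical); the dashed line marks equal values. Most genes lie near the line and near 0, while Sod3, Gpx8 and Gpx3 lie far below it, at 1.005 and -0.08, 0.97 and -0.96, and 2.15 and 1.08.

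Between the 79-week libraries 3 members differed by more than 1.5-fold, namely Gpx3, Sod3 and Gpx8, all higher in replicate 1. Between the 7-week libraries 0 members did.

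The peroxiredoxins, thiol peroxidases that mostly draw on thioredoxin, had 0 of 7 genes called, counted with Srxn1, against 8.84% of all genes. Their log2 fold changes ran from -0.24 to 0.11, and 3 were above 0. Prdx2, a cytosolic form, stood at 138 and 148 CPM at 7 weeks and at 138 and 138 CPM at 79 weeks (log2 fold change -0.05, SE 0.05, adjusted p = 0.599). Prdx1, also cytosolic, was at 70.5 and 75.5, then 77.1 and 80.7 CPM (0.11, SE 0.07). The mitochondrial Prdx3 was at 37.4 and 40.1, then 38.2 and 36.1 CPM, with overlapping ages. Prdx4 of the endoplasmic reticulum was at 10.1 to 12.1 CPM in all 4 libraries. Prdx5, found in several compartments, and Prdx6, which reduces phospholipid peroxides, had log2 fold changes of 0.06 and 0.09. The lowest value belonged to Srxn1, which encodes sulfiredoxin, the enzyme that restores overoxidised peroxiredoxins. It stood at 79.9 and 79.0 CPM at 7 weeks and at 68.7 and 65.6 CPM at 79 weeks, below both young libraries, and missed the threshold (log2 fold change -0.24, SE 0.06, adjusted p = 0.0540). Of the 18 alternatives 4 called it lower, among them robust dispersion estimates (adjusted p = 0.0378), within a range of 0.0114 to 0.887.

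In the thioredoxin system 1 of 5 genes rose, against 4.17% of all genes. Txnip (ENSMUSG00000038393) encodes a protein that binds and inhibits thioredoxin, limits glucose uptake and is induced by glucose. It stood at 17.0 and 17.9 CPM at 7 weeks and at 27.4 and 30.6 CPM at 79 weeks. The libraries of each age were close together, and the mean rose 1.66-fold, from 17.4 ± 0.631 to 29.0 ± 2.26 CPM (SD, n = 2 per age, log2 fold change 0.73, SE 0.10, edgeR adjusted p = 0.00903). Its log2 fold change was 0.64 to 0.81 over the alternatives, and its adjusted p 7.12e-09 to 0.227.

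Thioredoxin itself was not called. Txn1, the cytosolic form, was at 25.3 and 27.1, then 23.5 and 24.8 CPM (log2 fold change -0.12, SE 0.09, adjusted p = 0.457). Txn2, the mitochondrial form, was at 101 and 99.6, then 96.8 and 102 CPM (-0.02, SE 0.06). Their reductases Txnrd1 and Txnrd2 had log2 fold changes of 0.10 and 0.23 (adjusted p = 0.472 and 0.326).

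Glutathione synthesis and reduction held 4 genes, and 0 of them were called, against 8.84% of all genes tested. At an unadjusted p under 0.05 in edgeR it was again 0 of 4, as at an adjusted p under 0.05 in DESeq2. Gclm, the modifier subunit of the rate-limiting ligase, stood at 86.7 and 88.9 CPM at 7 weeks and at 88.0 and 79.1 CPM at 79 weeks. Gclc, its catalytic subunit, was at 72.7 and 77.2, then 70.9 and 71.1 CPM. The log2 fold changes were -0.07 (SE 0.07) and -0.08 (SE 0.06). Gss, which completes the tripeptide, was at 19.6 and 17.5, then 19.3 and 21.7 CPM. Gsr, which reduces oxidised glutathione, was at 37.5 and 32.7, then 31.1 and 31.9 CPM (log2 fold change -0.15, SE 0.09, adjusted p = 0.339). Of 10 genes of cystine and cysteine supply 1 fell, or 10% against 4.68% of all genes, and 9 were not called. The gene that fell was Slc1a3, the glutamate transporter of Bergmann glia, at 1703 and 1771, then 1433 and 1491 CPM (log2 fold change -0.25, adjusted p = 0.0435). Slc1a3 is also among the 13 markers of Bergmann glia and astrocytes. Slc7a11, the cystine importer that NRF2 induces, was at 23.1 and 22.3, then 31.0 and 24.4 CPM and was not called (adjusted p = 0.194).

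The 6 glutathione S-transferases among the members, which join glutathione to electrophiles, all had log2 fold changes above 0, from 0.15 to 0.47. Of all genes tested, 51.7% were above 0. The median of the 6 was 0.27, and each kept its sign in all 18 alternatives, which refit the same libraries. One was called. Gstp1 (ENSMUSG00000060803), the pi-class enzyme, stood at 40.8 and 43.3 CPM at 7 weeks and at 56.8 and 59.8 CPM at 79 weeks. It rose 1.39-fold, from 42.1 ± 1.74 to 58.3 ± 2.12 CPM (SD, n = 2 per age, log2 fold change 0.47, SE 0.07, edgeR adjusted p = 0.0137). The aged libraries agreed closely and lay well above the young ones. Of the 18 alternatives 12 called Gstp1, with log2 fold changes of 0.42 to 0.53 over all of them. Its near-identical neighbour Gstp2 had at most 0.338 CPM in any library, and reads that aligned equally well to both genes were not counted, so the levels of both are uncertain.

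Gstt1, the theta-class enzyme, had the same size of change, at 12.1 and 14.7 CPM, then 19.3 and 18.0 CPM, and narrowly missed the threshold (log2 fold change 0.47, SE 0.12, adjusted p = 0.0579). It was called in 5 of the 18 alternatives. Gstm1, a mu-class enzyme of astrocytes, stood at 186 and 187 CPM at 7 weeks and at 211 and 204 CPM at 79 weeks (log2 fold change 0.15, SE 0.05, adjusted p = 0.0909). Gstm5 and Gstm7, also of the mu class, had log2 fold changes of 0.25 and 0.25 (adjusted p = 0.165 and 0.400). The mu-class genes are similar in sequence, and reads that align equally well to several of them were not counted, so their levels are uncertain. Gsta4, which conjugates the lipid peroxidation product hydroxynonenal, was at 19.9 and 24.2, then 31.7 and 22.5 CPM, high in 79-week replicate 1 alone (adjusted p = 0.324). Of 35 other glutathione enzymes listed, 27 were tested, 1 rose, or 3.70% against 4.17% of all genes, and 0 fell. Mgst1, a microsomal transferase, was at 8.28 and 6.85, then 11.1 and 12.5 CPM (log2 fold change 0.65, SE 0.16, adjusted p = 0.0496). Of the 27 tested, 17 had log2 fold changes above 0. The tested transferases of this list below 0 were Mgst3 (-0.28, adjusted p = 0.0537), Gstk1 (-0.34, 0.241) and Gsto1 (-0.08, 0.700), all not called. Its other tested transferases were above 0. Among them Gsta3 (1.33, adjusted p = 0.0543) and Gstt3 (1.21, 0.0816) were low in counts and not called.

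Hmox1 and Nqo1, classical NRF2 targets outside the glutathione system, were low in counts and not called. Hmox1, the inducible heme oxygenase, stood at 3.18 and 3.42 CPM at 7 weeks and at 4.76 and 5.09 CPM at 79 weeks. The ages did not overlap (log2 fold change 0.58, SE 0.22, adjusted p = 0.139). Nqo1, a quinone reductase, was at 6.35 and 7.81, then 10.4 and 8.16 CPM (log2 fold change 0.39, SE 0.20, adjusted p = 0.252). Hmox2, the constitutive heme oxygenase of neurons, had overlapping ages at 58.8 and 58.7, then 56.0 and 59.4 CPM (log2 fold change -0.03, SE 0.07).

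NADPH pays for the reduction of glutathione and thioredoxin. The 13 genes listed around its supply include the pentose phosphate pathway, malic enzymes, isocitrate dehydrogenases and NAD kinases. Of these 2 rose, or 15.4% against 4.17% of all genes, 0 fell and 11 were not called. Tkt, the transketolase of the non-oxidative pentose phosphate pathway, which does not itself make NADPH, rose 1.37-fold, from 93.8 and 104 to 141 and 130.3 CPM (log2 fold change 0.46, SE 0.07, adjusted p = 0.0120). Me3, a mitochondrial malic enzyme that makes NADPH, rose 1.32-fold (adjusted p = 0.0236). Among 16 genes whose products make superoxide, peroxide or nitric oxide, 11 were tested. Of these 3 rose, or 27.3% against 4.17% of all genes, and 0 fell. Maob, the glial monoamine oxidase, stood at 14.8 and 15.2, then 28.0 and 23.7 CPM (log2 fold change 0.78, SE 0.11, adjusted p = 0.0106). Cybb, the catalytic subunit of the phagocyte oxidase, was at 0.498 and 0.338, then 1.34 and 1.38 CPM, from 8 and 7, then 26 and 32 reads. Its call rested on few reads and was close to the threshold (log2 fold change 1.72, SE 0.43, adjusted p = 0.0472). The summed microglial markers also went from 153 and 170 to 271 and 332 CPM. Their part in the result was not tested. Nos1, the neuronal nitric oxide synthase, rose 1.30-fold (adjusted p = 0.0337).

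The metallothioneins, small cysteine-rich proteins that bind zinc and copper, had 1 member of 3 that fell, against 4.68% of all genes. Mt2 (ENSMUSG00000031762) stood at 113 and 134 CPM at 7 weeks and at 94.1 and 98.3 CPM at 79 weeks. Both aged libraries were below both young ones, and the mean went from 123 ± 14.7 to 96.2 ± 3.02 CPM (SD, n = 2 per age, log2 fold change -0.36, SE 0.08, edgeR adjusted p = 0.0393). The call ended in 6 of the 18 alternatives, among them library size scaling (adjusted p = 0.0588, range 1.43e-06 to 0.641), and the log2 fold change was -0.48 when the lower 7-week library was left out and -0.23 when the higher was. Mt1, its neighbour and usual partner in induction, was at 172 and 191 CPM at 7 weeks and at 156 and 174 CPM at 79 weeks, with ages that overlapped (log2 fold change -0.14, SE 0.07, adjusted p = 0.277). Mt3, the form enriched in brain, was at 79.3 and 70.9, then 79.3 and 79.7 CPM (log2 fold change 0.08, SE 0.07, adjusted p = 0.501). In each of Mt1 and Mt2, replicate 2 was the higher library at both ages.

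Mt1 and Mt2 are also induced by glucocorticoids and are high in astrocytes. Of 12 glucocorticoid-responsive genes 4 were called lower, or 33.3% against 4.68% of all genes, and 0 higher. Their summed level was 650.2 and 788 CPM at 7 weeks and 692 and 665 CPM at 79 weeks. Of 10 immediate early genes 9 were tested and 3 rose, or 33.3% against 4.17% of all genes. The summed levels of the 10 were 165 and 196, then 570.0 and 277 CPM. Markers of Bergmann glia and astrocytes summed to 6751 and 7895, then 7395 and 7829 CPM. The part of these in the fall of Mt2 was not tested.

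Upstream sequence of the 3 metallothionein genes is shown because Mt2 was called and its neighbours were not, although the difference between the genes was not tested, and because the genes lie side by side on chromosome 8, in the order Mt3, Mt2 and Mt1. The windows, drawn and marked as for Nfe2l2, lie on the plus strand at chr8:94152357-94152606, chr8:94172368-94172617 and chr8:94178839-94179088.
Mt3: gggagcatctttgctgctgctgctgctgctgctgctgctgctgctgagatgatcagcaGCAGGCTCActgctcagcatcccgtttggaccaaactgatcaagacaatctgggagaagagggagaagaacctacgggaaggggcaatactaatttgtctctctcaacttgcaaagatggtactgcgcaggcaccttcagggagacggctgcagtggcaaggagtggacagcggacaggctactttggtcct
Mt2: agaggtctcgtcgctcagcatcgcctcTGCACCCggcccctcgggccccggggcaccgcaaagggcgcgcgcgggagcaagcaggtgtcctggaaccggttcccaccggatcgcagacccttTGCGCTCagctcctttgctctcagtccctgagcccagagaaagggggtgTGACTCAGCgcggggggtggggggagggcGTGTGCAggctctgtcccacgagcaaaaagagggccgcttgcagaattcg
Mt1: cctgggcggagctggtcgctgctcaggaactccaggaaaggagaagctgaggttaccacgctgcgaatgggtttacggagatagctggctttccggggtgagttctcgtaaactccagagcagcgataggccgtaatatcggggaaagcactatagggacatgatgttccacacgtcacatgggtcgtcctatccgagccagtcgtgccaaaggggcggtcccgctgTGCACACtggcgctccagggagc

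Mt2 holds 3 matches to the core of the metal response element, beginning 223, 128 and 50 bases before its start, and 1 antioxidant core, TGACTCAGC, beginning 79 bases before it. Mt1 holds 1 metal response core, 23 bases before its annotated start, and Mt3 holds none, with 1 antioxidant core in the TGAGNNNGC form on the opposite strand. A metal response core is present in 21.4% of all RefSeq windows of this length and in 13 of the 50 windows of members, which belong to 12 genes. No match in a window says only that these letters are not in these 250 bases. Each window ends at the annotated start, and whether transcription in cerebellum begins there was not tested. The numbers of matches are therefore not compared between Mt1, Mt2 and Mt3.

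Of 9 genes of metal response, 8 were tested, 0 rose and 1 fell, or 12.5% against 4.68% of all genes. Slc39a10, a zinc importer, stood at 100.5 and 95.5 CPM at 7 weeks and at 74.6 and 74.5 CPM at 79 weeks (log2 fold change -0.39, SE 0.06, adjusted p = 0.0118). The aged libraries were nearly equal and below both young ones. Mtf1, the zinc-sensing activator of metallothioneins, was at 41.2 and 45.0, then 41.7 and 51.7 CPM and was not called (adjusted p = 0.551).

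Ferritin stores iron in a shell of light and heavy chains. Ftl1 (ENSMUSG00000050708), the light chain, stood at 132 and 141 CPM at 7 weeks and at 179 and 179.8 CPM at 79 weeks. It rose 1.31-fold, from 137 ± 5.98 to 179 ± 0.698 CPM (SD, n = 2 per age, log2 fold change 0.39, SE 0.05, edgeR adjusted p = 0.00903). The aged libraries were almost the same and above both young ones, and the log2 fold change was 0.34 to 0.44 over the alternatives. The adjusted p ran from 1.90e-08 to 0.148, and 15 of the 18 alternatives called it.

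Fth1 (ENSMUSG00000024661), the heavy chain, which oxidises iron for storage, took 23.6% to 32.2% of all counts of the 42 genes. It stood at 911 and 883 CPM at 7 weeks and at 1027 and 1379 CPM at 79 weeks. Both aged libraries were above the young ones, but they lay far apart, and the difference was not called (log2 fold change 0.42, SE 0.12, edgeR adjusted p = 0.0764). The log2 fold change was 0.62, and called, when 79-week replicate 1 was left out (adjusted p = 2.32e-06). It was 0.19 when replicate 2 of that age was left out (0.0968). The replicate number as a block also gave a call (adjusted p = 0.0399), as did library size scaling (0.0494). In 79-week replicate 2, where Fth1 was highest, summed microglial markers were 332 CPM against 271 CPM in replicate 1, and oligodendrocyte markers were 5238 against 3714 CPM. At 7 weeks, where Fth1 was lower, microglial markers summed to 153 and 170 CPM and oligodendrocyte markers to 6152 and 5765 CPM. Their part in the result was not tested. Both ferritin genes have processed copies in the genome, and reads that aligned to more than 1 place, 8.02% to 8.25% of each library, were not counted.

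Of 19 other iron genes found, 16 were tested, 0 rose and 1 fell, or 6.25% against 4.68% of all genes. Tfrc, the transferrin receptor that brings iron into cells and whose mRNA, like that of ferritin, carries iron-responsive elements, stood at 109.6 and 121 CPM at 7 weeks and at 82.2 and 67.3 CPM at 79 weeks. The ages did not overlap, and it fell by 0.63 on the log2 scale (SE 0.10, adjusted p = 0.0137). Ireb2, which encodes an iron regulatory protein that binds those elements, was at 104 and 98.4, then 89.1 and 76.8 CPM and was not called (log2 fold change -0.29, adjusted p = 0.0675). The iron exporter gene Slc40a1 had overlapping ages, at 5.67 and 3.76, then 3.57 and 5.61 CPM (adjusted p = 0.969).

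Over the 9 lists of other pathway genes, 139 of 156 found were tested, 7 rose and 4 fell, or 7.91% against 8.84% of all genes tested. Their median log2 fold change was 0.07.

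**Figure D4:**
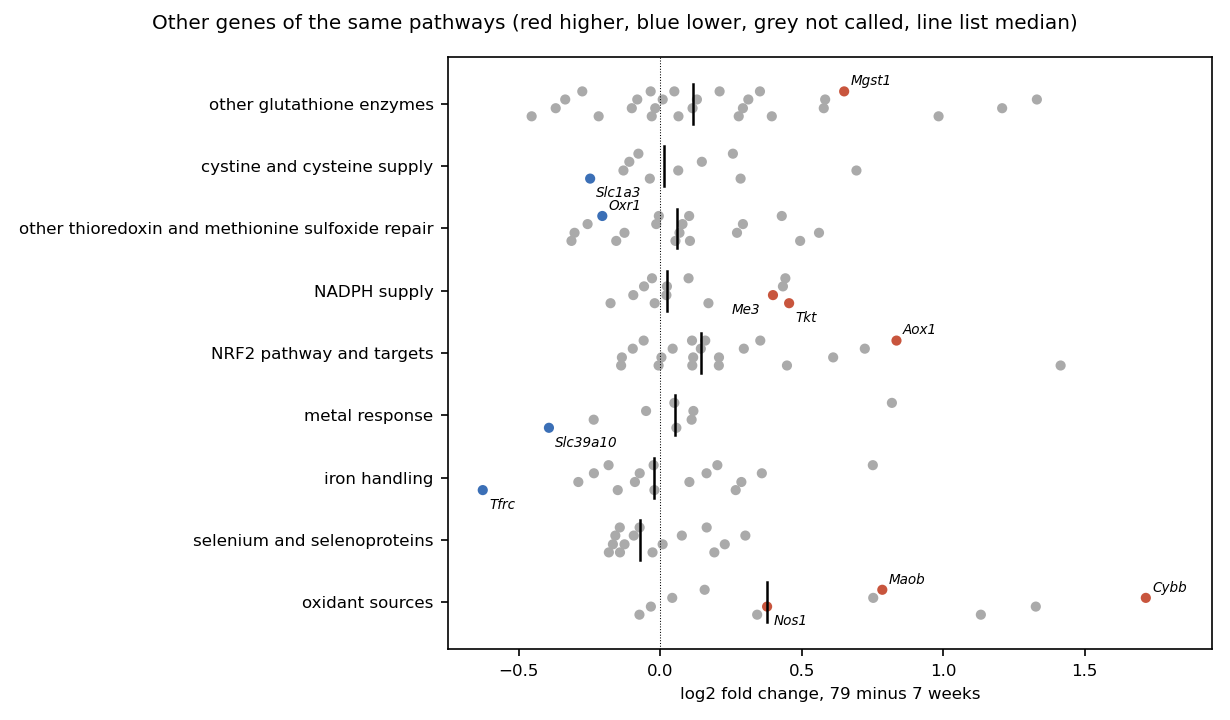
Each point is the log2 fold change, 79 minus 7 weeks, of 1 of the 139 tested genes in 9 lists of related pathways; black lines mark the list medians. The 7 genes called higher (red) and the 4 called lower (blue) are named, and most points lie between -0.5 and 0.5.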

How the data were processed

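Per the labels, the authors extracted RNA with Trizol and made libraries with a Universal Plus mRNA-Seq kit. Each deposited table holds unnormalized read counts by Ensembl gene identifier. Per the submitters' processing notes, cutadapt, STAR, HTSeq and build mm9 were used, while tool versions, annotation release and strand handling were not given in the sources used here. The HTSeq summary lines were removed. Reads in no annotated gene were 18.7% to 20.4% of each library and unaligned reads 7.97% to 11.4%. Counting error alone limits a gene with 0 reads to 3 counts, or 0.130 to 0.187 CPM.

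Symbols were matched through a table of Ensembl identifiers. Genes were kept by filterByExpr (minimum count 10, total 15), scaled by TMM (factors 0.981 to 1.02) and tested by edgeR 4.0.16 (R 4.3.3, glmQLFit and glmQLFTest, no covariates), with Benjamini-Hochberg adjustment over all 15292 genes and a cutoff of 0.05. The fitted biological coefficient of variation was 9.43%. Standard errors come from the fitted weights and dispersions. The fit was also run on simulated counts with the same dispersion for every gene and library. That setting lacks the wider spread between the 79-week libraries, so it does not test the calls made here.

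Full values are given for each called member and for the member of each family with the most counts, and up to 3 called genes per pathway list are named. Keap1, Ccs, Slc7a11, Mtf1, Ireb2, Slc40a1 and Gstp2 were named outside this rule, for their roles. Other members are given where family members are compared. Members, lists of 157 pathway genes (156 found) and 131 markers (129 found), and motifs were chosen with earlier results of these data known. Marker lists covered Bergmann glia and astrocytes, granule neurons, Purkinje cells, oligodendrocytes, microglia, endothelial cells, choroid plexus, meninges and fibroblasts, ependymal cells, red blood cells, glucocorticoid response and immediate early genes. Alternatives were RLE and library size scaling, other filters, DESeq2 1.42.0, limma-voom (limma 3.58.1), robust and newer dispersion estimates, a replicate block, and leaving out each library in turn. A crossed block and DESeq2 without each library were added after the data were seen.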

Additional observations from a re-analysis of the deposited data

How the results depend on the processing

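The main fit called 1352 genes, with 47.1% of the calls higher at 79 weeks, and library size scaling gave 1385 calls with 65.1% higher. Library size scaling also gave 0 members called lower, a member median of 0.17, and 13 other pathway genes higher and 2 lower, against 2, 0.12, 7 and 4 in the main fit. Without a low-count filter, 3051 genes, 10 members higher, and 19 and 11 pathway genes higher and lower were called. A filter of 1 CPM in 2 libraries gave 11 pathway genes higher, and robust dispersion estimates gave 13 and 7. DESeq2 and limma-voom each called 1 member lower. The labels do not say what the shared replicate numbers mark. Replicate differences correlated at -0.12 between ages, and the replicate block called 1396 genes, 7 members higher and 1 lower, with Fth1 called, Sod2 lost and no other member's call changed. A crossed replicate block called 2014 genes, 8 members higher and 3 lower, and 15 and 7 pathway genes. With each library left out in turn, edgeR called 0 to 2425 genes (0 and 175 without the first and second young library, 1579 and 2425 without the first and second aged library) and DESeq2 244, 438, 381 and 654 in that order. Over both tools the calls ranged from 0 to 11 members higher, from 0 to 1 members lower, from 0 to 16 pathway genes higher and from 0 to 6 lower, and the member median from 0.053 to 0.146, with 0.060 in edgeR without 79-week replicate 1 and 0.074 in DESeq2 without 7-week replicate 1. The lone library that remains at an age is assumed to vary like the others. The cause of these differences was not tested. With 2 libraries per age, small changes in genes of few counts, such as Gpx7, Gpx8 and Hmox1, may be missed.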
